A study of Mus musculus with 6 samples.

Results

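The Nr4a and Egr genes encode transcription factors that T cells make within minutes to hours of a signal through the T cell receptor. The 6 genes described here are Nr4a1, Nr4a2 and Nr4a3 of the Nr4a group and Egr1, Egr2 and Egr3 of the Egr group. Each was taken by its symbol from the platform annotation of the arrays, and each is measured by 1 probe set, so all 6 were found among the 19938 genes tested. The samples were naive CD4 T cells of 6-week-old mice of the strain C57BL/6 Foxp3-GFP, taken from peripheral lymph nodes; in this strain a fluorescent protein reports the regulatory T cell factor Foxp3. All cells were sorted as CD4+, CD8-, TCRβ+, CD44lo, CD25- and Foxp3-, with no treatment named by the labels, and were then split into those that carried the surface protein Ly-6C and those that lacked it. Each population was hybridised on 3 Affymetrix arrays, 6 in all, labelled as biological replicates. The labels do not say which mice or how many gave the cells of an array, so the p-values measure the spread between these arrays.

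Nr4a factors are orphan nuclear receptors: no hormone ligand is needed to switch them on, and their activity in T cells follows largely from how much of them is made. Nr4a1 encodes Nur77, which is widely used as a reporter of the strength of recent T cell receptor signals, including the weak signals that self-peptides give to resting naive cells. Egr factors are zinc finger proteins whose genes answer the ERK branch of receptor signalling through serum response elements. Egr1 is the general early responder, whereas Egr2 and Egr3 are known in T cells for raising inhibitors of receptor signalling and for a part in anergy. The comparison asks how the transcripts of these factors differ between resting naive cells that lack Ly-6C and those that carry it. Differences are on the log2 scale and above 0 where Ly-6C-negative cells had the higher mean.

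The promoter sequences are shown for the elements through which receptor signals are known to reach these genes: cyclic AMP response elements (CRE), which CREB binds, the MEF2 box, and the CArG box of serum response elements, which SRF binds. Windows of 4 of the 6 genes, Nr4a1, Nr4a2, Nr4a3 and Egr2, were used from the RefSeq promoter table (build GRCm38.p6), found by symbol. No window of Egr1 or Egr3 was used, so the statements on windows do not cover them. The 250 bases before the listed start are given 5′ to 3′ on the gene's strand for the Nr4a genes: Nr4a1 at chr15:101266596-101266845 on the plus strand, Nr4a2 at chr2:57124004-57124253 on the minus strand and Nr4a3 at chr4:48045055-48045304 on the plus strand. Capitals mark TGACG, the core of the CRE, on either strand, and in Nr4a2 also a match to the MEF2 box.
Nr4a1: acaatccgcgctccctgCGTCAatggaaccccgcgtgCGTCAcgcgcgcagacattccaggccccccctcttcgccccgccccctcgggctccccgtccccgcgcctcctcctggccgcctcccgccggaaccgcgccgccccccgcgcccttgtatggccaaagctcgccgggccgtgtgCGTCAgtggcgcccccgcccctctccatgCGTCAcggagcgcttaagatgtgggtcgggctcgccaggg
Nr4a2: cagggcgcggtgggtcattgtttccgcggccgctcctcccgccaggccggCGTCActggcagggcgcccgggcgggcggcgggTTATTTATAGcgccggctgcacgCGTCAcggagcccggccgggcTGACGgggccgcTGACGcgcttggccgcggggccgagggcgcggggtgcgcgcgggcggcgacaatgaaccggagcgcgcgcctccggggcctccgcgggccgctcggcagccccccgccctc
Nr4a3: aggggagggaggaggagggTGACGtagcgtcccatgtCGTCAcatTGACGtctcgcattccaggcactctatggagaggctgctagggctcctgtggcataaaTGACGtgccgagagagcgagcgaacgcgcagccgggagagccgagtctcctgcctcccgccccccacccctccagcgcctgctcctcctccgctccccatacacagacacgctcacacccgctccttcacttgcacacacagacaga
The Egr2 stretch is the 30 bases at chr10:67537793-67537822 on the plus strand, from 76 to 47 bases before a listed start, with a CArG box and a CRE core in capitals.
Egr2: cagtCCATATATGGgcagcgaCGTCAcggg

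Each of the 3 Nr4a windows held 4 CRE cores on the 2 strands together. A CRE core was present in 17.8% of all 32851 promoter windows of the same length, and 4 or more of them in 0.137% (0.370% of the 9178 windows with at least 60% GC). The Nr4a windows had 74.4%, 80.0% and 63.6% GC for Nr4a1, Nr4a2 and Nr4a3. The MEF2 box of Nr4a2, TTATTTATAG, lay 167 to 158 bases before the start and did not overlap a CRE core; 2.92% of all windows held a MEF2 box. No CArG box was found in these 3 windows. Of the 5 Egr2 windows in the table, 4 held a CArG box, and 1.47% of all windows did. The Egr2 windows overlap in part, so the same CCATATATGG box was counted in several of them. The full CRE TGACGTCA, the Nr4a site AAAGGTCA and the Egr site GCGTGGGCG were searched on both strands and matched none of these windows; 1.55%, 1.34% and 0.536% of all windows held them. These are matches of letters in short windows and no measurement of binding.

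None of the 6 transcripts passed the limma threshold of adjusted p 0.05 over all genes. All 6 had a higher mean in Ly-6C-negative cells, from 0.057 for Egr2 to 0.34 for Nr4a1, with a median difference of 0.10 where the median over all genes was -0.0048. Over all genes, 0.145% passed (29 of 19938), and 47.8% had a difference above 0. The arrays of both groups did not overlap for Nr4a1 and Egr1, 2 of the 6 genes, where 12.6% of all genes showed no overlap and 6.12% showed none with Ly-6C-negative cells higher. In bulk RNA, a lower share of cells with the transcript and less transcript per cell cannot be told apart.

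**Figure D1:**
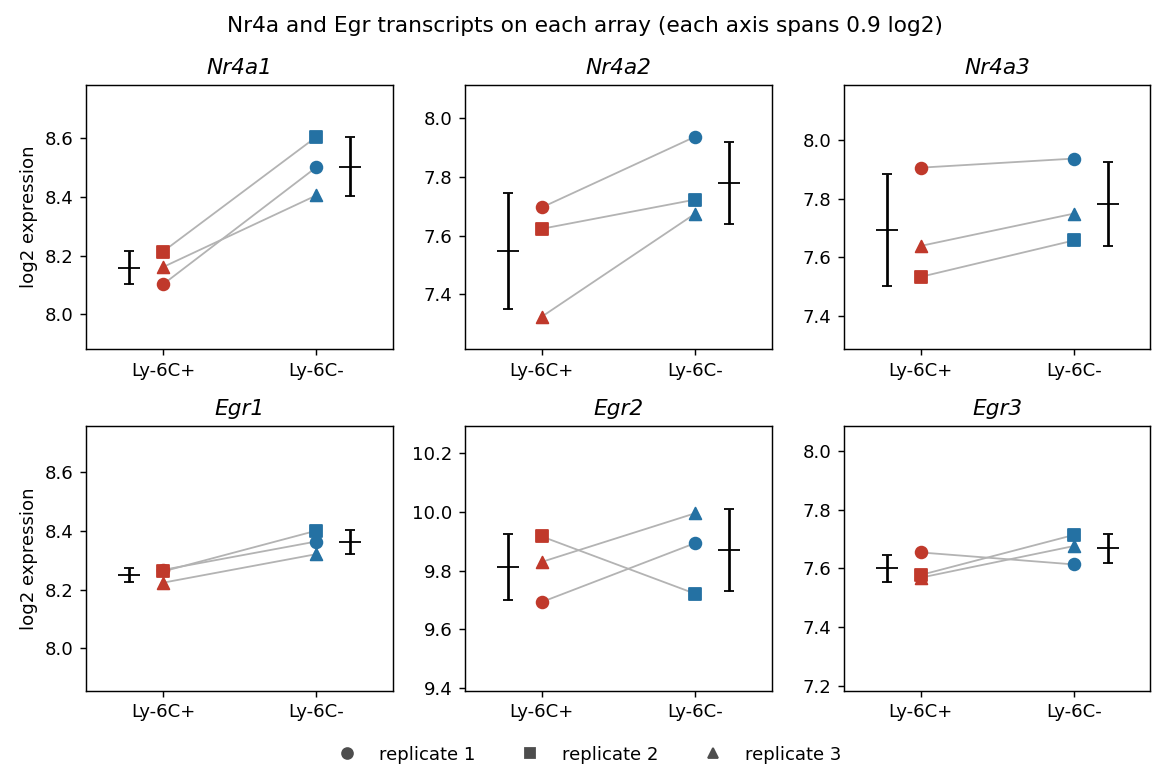
Log2 expression of the 6 factors on each array, with Ly-6C-positive arrays on the left and Ly-6C-negative arrays on the right of each panel; markers and grey lines give the replicate number, and black bars the mean ± SD of 3 arrays. Nr4a1 and Egr1 have all Ly-6C-negative arrays above all Ly-6C-positive ones, and Nr4a2 and Nr4a3 have replicate 1 highest in both groups. Egr2 and Egr3 each have a line that falls from Ly-6C-positive to Ly-6C-negative.

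Nr4a1 had the largest difference of the 6. Its probe set 10427035 measured 8.10, 8.21 and 8.16 on Ly-6C-positive replicates 1, 2 and 3 and 8.50, 8.60 and 8.40 on the Ly-6C-negative ones. Every Ly-6C-negative array lay above every Ly-6C-positive array, and the same-numbered arrays differed by 0.40, 0.39 and 0.24. The means were 8.50 ± 0.099 (SD, n = 3) and 8.16 ± 0.056 (SD, n = 3), a difference of 0.34 or 1.27-fold with a standard error of 0.074 and a 95% confidence interval of 0.18 to 0.51. That difference exceeds the SD of either group. Before adjustment the limma p was 0.00101, the 79th smallest of 19938, and after it limma adjusted p = 0.256. It was the 1 factor of 6 with an unadjusted p under 0.05, which 6.71% of all genes had. Over 15 alternatives the difference ran from 0.29 to 0.39 and the limma adjusted p from 0.126 to 0.749, and no alternative called the gene.

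Nr4a2, which encodes Nurr1 and is best known for its part in dopamine neurons, measured 7.70, 7.62 and 7.32 on the Ly-6C-positive arrays and 7.94, 7.72 and 7.67 on the Ly-6C-negative arrays. The groups overlapped, because Ly-6C-positive replicate 1 lay above Ly-6C-negative replicate 3. Within same-numbered arrays the Ly-6C-negative one was higher each time, by 0.24, 0.099 and 0.35. The difference was 0.23 or 1.17-fold, with a standard error of 0.11 and an interval of -0.013 to 0.47 (limma adjusted p = 0.760, or 0.560 in the fit that takes the replicate number as a block). Without Ly-6C-positive replicate 3, the lowest array, it was 0.12.

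Nr4a3, which encodes Nor-1, measured 7.91, 7.53 and 7.64 on the Ly-6C-positive arrays and 7.94, 7.66 and 7.75 on the Ly-6C-negative arrays. Replicate 1 was the highest and replicate 2 the lowest in both populations, so the groups overlapped widely. The same-numbered arrays differed by 0.031, 0.12 and 0.11, and the mean difference was 0.088 or 1.06-fold, with an interval of -0.15 to 0.33 (limma adjusted p = 0.931). Without Ly-6C-positive replicate 2 it was 0.0088, and without Ly-6C-positive replicate 1 it was 0.19. For both Nr4a2 and Nr4a3 the spread within a population was shared between populations by replicate number: with the replicate number as a block, the standard error went from 0.11 to 0.079 for Nr4a2 and from 0.11 to 0.073 for Nr4a3. For Nr4a1 it was 0.074 without the block and 0.075 with it.

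Egr1 had the smallest spread within groups of the 6. It measured 8.27, 8.26 and 8.22 on the Ly-6C-positive arrays and 8.36, 8.40 and 8.32 on the Ly-6C-negative arrays, so the groups did not overlap. The means were 8.25 ± 0.024 (SD, n = 3) and 8.36 ± 0.040 (SD, n = 3), and the difference of 0.11, or 1.08-fold, was larger than either SD. The model draws such small spreads towards that of all genes, and gave a standard error of 0.063, an interval of -0.030 to 0.25 and limma adjusted p = 0.826.

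Egr2 and Egr3 did not separate the populations. Egr2 measured 9.69, 9.92 and 9.83 on the Ly-6C-positive arrays and 9.89, 9.72 and 10.00 on the Ly-6C-negative arrays. Replicate 2 ran the other way from replicates 1 and 3, with same-numbered differences of 0.20, -0.19 and 0.17, and the mean difference of 0.057 had an interval of -0.14 to 0.26 (limma adjusted p = 0.948). It was -0.0029 without Ly-6C-positive replicate 1 and -0.0055 without Ly-6C-negative replicate 3. Without Ly-6C-negative replicate 2 it was 0.13, the highest of the fits without 1 array. Egr3 measured 7.65, 7.58 and 7.57 on the Ly-6C-positive arrays and 7.61, 7.71 and 7.68 on the Ly-6C-negative arrays. Ly-6C-positive replicate 1 lay above Ly-6C-negative replicate 1, and the difference of 0.068 had an interval of -0.079 to 0.21 (limma adjusted p = 0.910). A difference as large as that of Nr4a1, 0.34, lies outside the intervals of Egr1, Egr2 and Egr3 and also of Nr4a3, and inside that of Nr4a2. Whether the differences of the 6 genes differ from each other was not tested.

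In all, 4 of the 6 factors, Nr4a1, Nr4a2, Nr4a3 and Egr1, were higher on the Ly-6C-negative array of each of the 3 same-numbered pairs, as were 13.3% of all genes.

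**Figure D2:**
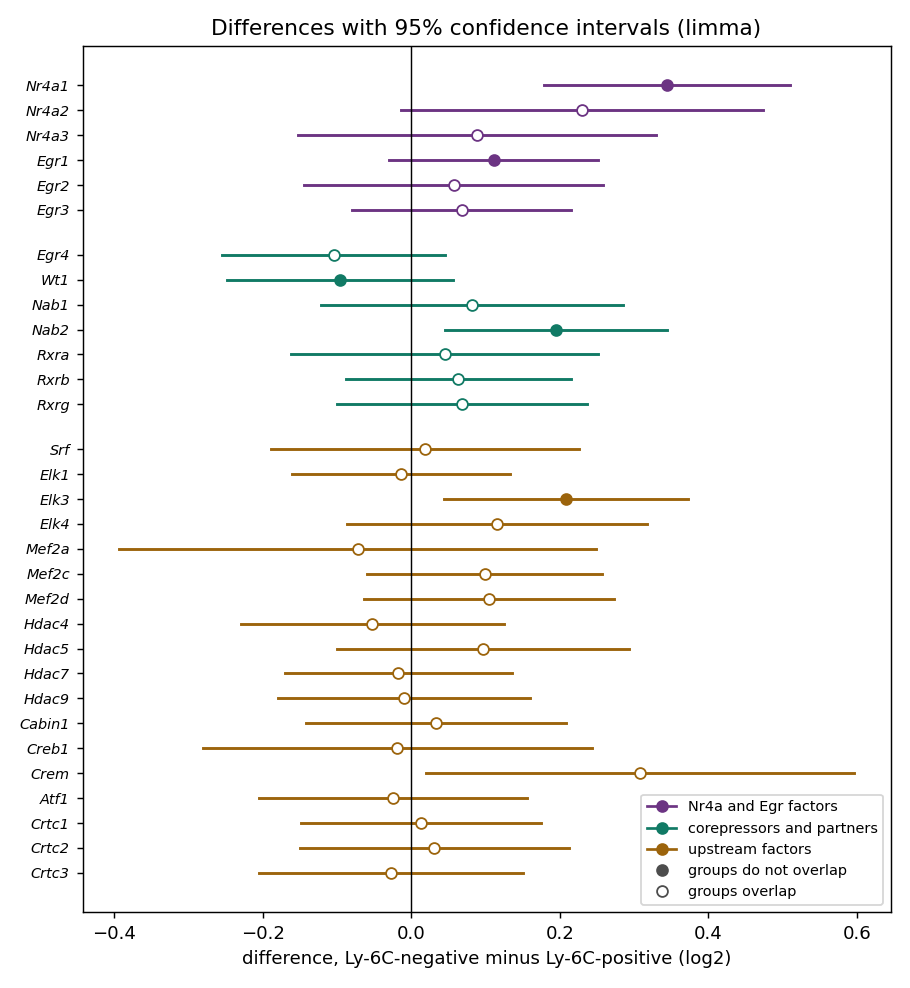
Difference between populations in log2 units (horizontal axis) with its 95% confidence interval for the 6 factors, 7 partners and relatives and 18 upstream factors; filled points have groups that do not overlap. The interval of Nr4a1, 0.18 to 0.51, lies clear of 0 before adjustment, as do those of Nab2, Elk3 and Crem, and none of these genes passed the adjusted threshold.

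The proteins that bind these factors, and their close relatives, gave differences in both directions. None of the 7 measured passed the threshold; 5 lay above 0 and 2 below, with a median of 0.063. Nab2, a corepressor of Egr proteins that Egr factors themselves induce, differed by 0.19 with groups that did not overlap (limma adjusted p = 0.613), and its relative Nab1 by 0.081. Egr4, the remaining Egr gene, differed by -0.10 and Wt1, a zinc finger relative, by -0.096, the latter with no overlap, as in 6.5% of all genes on the lower side. The retinoid X receptors, which pair with Nr4a1 and Nr4a2 on DNA, differed by 0.045 for Rxra, 0.063 for Rxrb and 0.068 for Rxrg, and without 1 array these 3 values ran from -0.056 to 0.11.

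Of 18 factors that act on Nr4a and Egr promoters none passed, 10 lay above 0 and 8 below, and the median was 0.016. Elk3, an ETS factor that partners SRF, differed by 0.21 (limma adjusted p = 0.617). It was the 1 gene of these 18 whose groups did not overlap. Among all genes, 12.6% showed no overlap, and 6.12% showed none with Ly-6C-negative cells higher. Crem, a CREB relative, differed by 0.31 (limma adjusted p = 0.718; 0.20 to 0.43 without 1 array), Mef2d by 0.10 and Mef2c by 0.099 (0.050 to 0.14 without 1 array). Mef2d has 2 probe sets, whose mean differed by 0.030.

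Other immediate early genes gave differences in both directions. Of 30 measured, none passed, 19 lay above 0 and 11 below, and the median was 0.071. Groups did not overlap for 4 of the 30, 3 of them higher. The shares over all genes were 12.6% without overlap and 6.12% without overlap and higher in Ly-6C-negative cells. The phosphatase gene Dusp6, a feedback inhibitor of ERK, differed by 0.33 with no overlap (limma adjusted p = 0.20). The AP-1 genes among the 4 with the smallest p lay on the other side. Jun differed by -0.30 (limma adjusted p = 0.577), Fosb by -0.21 (limma adjusted p = 0.753) and Fosl1 by -0.19 (limma adjusted p = 0.741). The other AP-1 genes of the list lay on both sides. Fosl2 differed by 0.12, Jund by 0.056, Fos by 0.0032, Junb by -0.049 and Atf3 by -0.13. Genes that tissue handling and heat shock raise had a median of -0.034 over 14 measured genes, 5 above 0 and 9 below, and none passed. Ppp1r15a differed by -0.31, Gadd45b by 0.23, Sqstm1 by -0.16 and Ddit3 by 0.16. The last 2 rested on Ly-6C-negative replicate 2, without which they differed by -0.012 and 0.025. The mean level of this list per array ran from 9.29 to 9.40 in Ly-6C-positive and from 9.24 to 9.37 in Ly-6C-negative cells; its part in the Nr4a and Egr values was not tested.

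**Figure D3:**
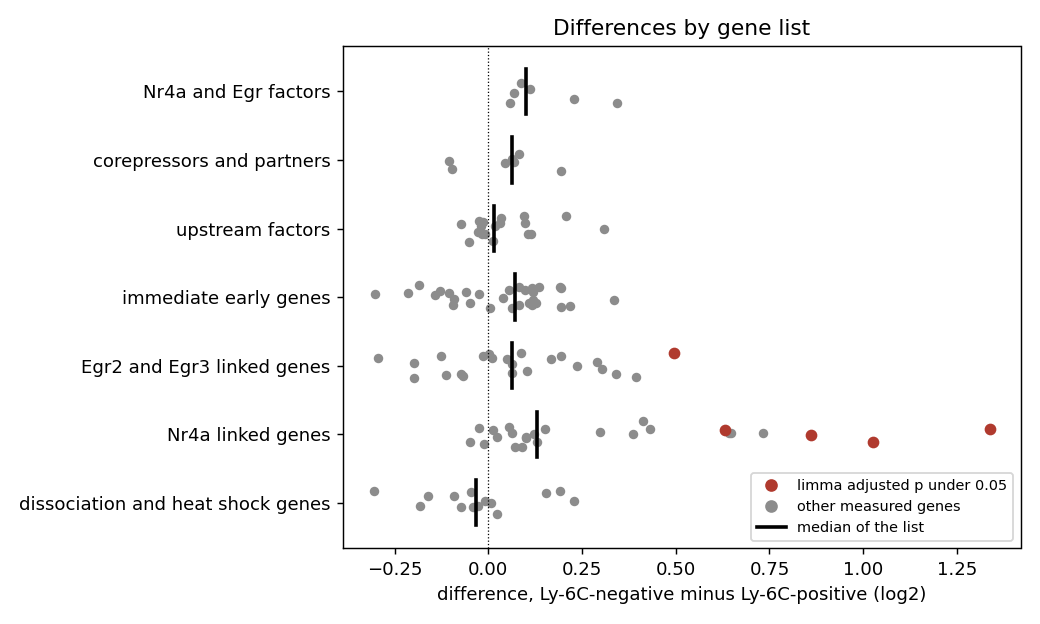
Each point is a gene of the named list at its difference between populations in log2 units, with black bars at list medians; red points passed limma adjusted p 0.05. The factors themselves lie between 0.057 and 0.34 with none called, while the list of Nr4a linked genes reaches 1.34 with 4 called.

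Genes linked to Nr4a activity or used beside Nur77 as readouts of receptor signal strength included 4 that passed, all higher in Ly-6C-negative cells, out of 25 measured, where 0.1% of all genes passed as higher. They were Ctla4, an inhibitory receptor (1.34, limma adjusted p = 0.0121), Izumo1r, folate receptor 4 (1.03, limma adjusted p = 0.00200), Cd200 (0.86, limma adjusted p = 0.0112) and Ikzf2, the gene of Helios (0.63, limma adjusted p = 0.0263). In the list 22 lay above 0 and the median was 0.13. Groups did not overlap for 13, all of them higher, where 6.12% of all genes showed this. Earlier results of these data were known when the list was written, so its count is no independent evidence of a direction. The replicate block, with which 0.206% of all genes passed, raised the count to 7, adding Nt5e (limma adjusted p = 0.00602), Ubash3b (limma adjusted p = 0.0115) and Icos (limma adjusted p = 0.0204), which without it were at 0.427, 0.312 and 0.145. These 3 genes, and Cd5 and Cd6, were named after their values were seen. Cd5, whose level follows receptor signal strength, differed by 0.41 and Cd6 by 0.43, both at limma adjusted p = 0.139. The count depended on single arrays: it was 2, 1 and 2 without Ly-6C-positive replicates 1, 2 and 3, 1 without Ly-6C-negative replicate 1, and 7 without Ly-6C-negative replicate 2, with Cd5, Cd6 and Icos then called. Izumo1r passed each time, while Ctla4 and Cd200 lost the call in 3 of these 6 fits (limma adjusted p up to 0.140 for each) and Ikzf2 in 4 (up to 0.199).

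Genes linked to Egr2 and Egr3 gave 1 call in 23 measured, where 0.145% of all genes passed. Tnfrsf9, the gene of 4-1BB, was higher by 0.50 (limma adjusted p = 0.0325). It lost the call when any 1 array other than Ly-6C-negative replicate 2 was left out, with limma adjusted p up to 0.239. In this list 15 genes lay above 0 and 8 below, with a median of 0.063. Groups did not overlap for 9, 7 of them higher. Of all genes, 12.6% showed no overlap, and 6.12% showed none with Ly-6C-negative cells higher. This list too was written with earlier results of these data known. Dgkz, a diacylglycerol kinase that damps receptor signals, differed by 0.34 (limma adjusted p = 0.145), but by 0.14 (limma adjusted p = 0.762) in the mean of its 2 probe sets. The repressor gene Bcl6 differed by 0.30 and Ndrg1 by 0.29. Below 0, the genes of this list with the smallest p were Crtam and Fasl, named after their values were seen. Crtam differed by -0.29 (limma adjusted p = 0.617) and Fasl by -0.20 with no overlap (limma adjusted p = 0.644).

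The pattern of each factor over the 6 arrays was set beside that of the other genes of all lists, 176 genes in all, by Pearson's r. These r values are descriptions without a test: they are the highest of many, and the arrays share the group difference. Nr4a1 was most like Tnfrsf9 (r = 0.982; 0.918 after each group's mean was removed), Tnfrsf4, the OX40 gene (r = 0.964; 0.682), and Egr1 (r = 0.951; 0.712). Egr1 was most like Eomes (r = 0.986; 0.934), Nr4a1 and Tnfrsf9 (r = 0.921; 0.447). Nr4a2 was most like the inhibitory receptor genes Pdcd1 (r = 0.937; 0.893) and Tigit (r = 0.897; 0.914) and like Nrn1 (r = 0.892; 0.811), and Nr4a3 like Tnfaip3 (r = 0.918; 0.912), Il10 (r = 0.843; 0.999) and Ccr9 (r = 0.832; 0.818).

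Egr2 was most like Pecam1 (r = 0.980; 0.983), Cabin1 (r = 0.921; 0.918) and Dgka (r = 0.894; 0.923). Of the Ly-6C-negative arrays, replicate 2 was the lowest for Egr2 and for each of these genes. That array was also the lowest of its group for Cd4, Foxp3 and Sqstm1, and the highest for Ddit3, Nab1 and Cd8b1. The part of this array in the r values of Egr2 was not tested. Egr3 was most like Itgam (r = 0.971; 0.999), Lyz2 (r = 0.921; 0.863) and Mef2d (r = 0.869; 0.787). The myeloid markers Itgam and Lyz2 were dim, with mean levels of 5.15 and 4.73 where the median gene had 6.37. Of the 9 markers of monocytes, macrophages and neutrophils, 4 differed by more than 0 between populations and 5 by less. Among the factors themselves r ran from -0.317 for Egr2 with Egr3 to 0.951 for Nr4a1 with Egr1, and Nr4a2 with Nr4a3 had 0.617. After group means were removed, Egr2 had negative r with each of the other 5, from -0.171 to -0.731.

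Checks of the sort gave these values. T cell genes were present on all arrays, with a mean level of 8 such genes between 11.2 and 11.3, and none passed. Of the gate genes none passed either: Cd44 differed by -0.25 with no overlap, Il2ra by 0.12, Cd8b1 by -0.12, Cd4 by -0.089, Cd8a by -0.029 and Foxp3 by 0.013. Of 9 NK and innate lymphoid markers Gzma was lower by the test (-0.69, limma adjusted p = 0.0392), where 0.0451% of all genes passed as lower. It lost the call in 5 of the 6 fits without 1 array (limma adjusted p up to 0.290), and the perforin gene Prf1 differed by -0.70 (limma adjusted p = 0.145; 0.00848 with the block). Eomes, the gene of this list with the next smallest p, lay on the other side at 0.27 with groups that did not overlap (limma adjusted p = 0.473), and of the 9 genes 3 lay above 0 and 6 below. The mean level of these 9 ran from 5.36 to 5.37 in Ly-6C-positive and from 5.18 to 5.23 in Ly-6C-negative cells. No marker passed among 7 of B cells, 9 of monocytes, macrophages and neutrophils, 9 of dendritic cells and 8 of stroma and endothelium; their medians were -0.0046, -0.023, -0.056 and -0.0093. The part of these cell types in the Nr4a and Egr values was not tested.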

How the data were processed

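The deposited table holds log2 values of 28853 probe sets on 6 arrays, made by the authors with RMA and Partek per the submitters' processing notes; the sources used here give no versions, roles or genome build. Per the labels' protocols, RNA was amplified by whole-transcriptome amplification before labelling. RMA equalises the arrays' distributions and compresses dim differences. Array medians ran from 6.25 to 6.29. Precision is limited by having 3 arrays a group.

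Of the probe sets, 21789 had 1 symbol; the one with the highest mean was kept per gene, which left 19938 genes. The test was limma's (version 3.58.1, R 4.3.3; lmFit and eBayes, 2-sided), without a covariate or filter, adjusted by Benjamini-Hochberg over all genes. Members and lists were chosen with earlier results of these data known. The genes named are the 6 factors, their partners, the gate genes, up to 4 genes per list with the smallest p, list genes past the threshold, and the 3 list genes most like each factor; others are marked. Of the listed genes, those without a probe set of their own symbol were not analysed here.

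Same-numbered arrays deviated together (r of 0.129, 0.128 and 0.107 across genes, and -0.107 to -0.011 between arrays of unlike number). The labels do not state a pairing. The main test therefore ignored the replicate number, and an alternative fit took it as a block. The alternatives were that block, 2 other scalings, a filter on dim genes, 2 ways of using probe sets, 2 other eBayes or weight settings, each array left out, and an adjusted p of 0.1. On simulated data of 19938 genes in 20 runs, the fit recovered 0.40% of changes of 0.2, 22.9% of 0.35, 55.4% of 0.5 and 93.4% of 1 (log2), with 3.85% of calls false. Each run changed 50 genes of each size. Arrays were drawn independently with each gene's own within-group SD, so the deviation shared by same-numbered arrays was not simulated. The rates hold for that setting and can differ where fewer or more genes change. Figures used matplotlib 3.10.9 in Python 3.11.15.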

Additional observations from a re-analysis of the deposited data

How the results depend on the processing

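No Nr4a or Egr gene passed under any of the 15 alternatives, which were planned, and the median difference of the 6 stayed above 0, between 0.074 and 0.16, with 0.081 to 0.16 without 1 array. Egr2 was the factor whose direction turned, at -0.0055 to 0.13 without 1 array. The count of all genes past the threshold was 29, 41 with the replicate number as a block, 54 with array weights and 5 to 47 without 1 array. The count among Nr4a linked genes was 4, 7 with the replicate block, 7 with array weights and 1 to 7 without 1 array, and among Egr2 and Egr3 linked genes 1, and 0 to 1 without 1 array; alternatives for these 2 counts were added after the data were seen. The block changed the call of Prf1, Icos, Nt5e and Ubash3b and of no other of the genes followed. In all, 67 genes were followed through the alternatives, not all of which are printed. The dim ones among them had no value under the filter on dim genes. Of the 67, 9 changed direction in some fit without 1 array, and none of these was called. Besides Egr2, the ranges were -0.074 to 0.12 for Foxp3, -0.016 to 0.15 for Nab1, -0.056 to 0.10 for Rxra, -0.20 to 0.0079 for Cd4, -0.066 to 0.012 for Cd8a, -0.21 to 0.021 for Cd8b1, -0.034 to 0.064 for Cd2 and -0.0027 to 0.028 for Zap70. Zap70 also turned, to -0.010, under a second quantile normalization. At a log2 size of 0.35, near that of Nr4a1, the simulated fit recovered 22.9% of changes in its own setting of 50 changed genes per size. The rate for the real arrays was not measured. A miss at this size is no sign of equal levels.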
